A study of Homo sapiens with 2 samples.

Results

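Integrins, laminins and the remaining parts of the hemidesmosome hold an epithelial cell to its basement membrane, and their RNA was compared between SAS and eSAS cells. The genes were taken from the array by name: all integrin alpha and beta subunits, all laminin alpha, beta and gamma chains, and COL17A1, DST, PLEC1 and CD151. This gave 42 of 30484 gene or transcript names on the array (18 alpha subunits, 8 beta subunits, 12 laminin chains and 4 hemidesmosome genes), read by 75 probes. SAS is an established cell line from a human squamous cell carcinoma of the tongue. eSAS is the SAS population obtained after 5 rounds in which large spheroids, grown without attachment, were caught on a membrane filter and grown again. The methods describe a step that took single cells to establish a line, and whether the eSAS RNA came from 1 such clone is not given in the sources used here. Total RNA of both, taken during logarithmic growth, was hybridised to 2 arrays, 1 for each population. With 1 array per group, the 2 populations could not be tested against each other and no value has a replicate check, so all differences below compare these 2 arrays and not the conditions.

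An integrin is a pair of 1 alpha and 1 beta subunit in the cell membrane, which binds a matrix protein outside the cell and links it to the cytoskeleton inside. A laminin is a trimer of an alpha, a beta and a gamma chain, and forms the sheet of the basement membrane. In stratified epithelia such as the tongue, the integrin of ITGA6 and ITGB4 binds a laminin that holds LAMA3 and LAMB3. This integrin, the collagen COL17A1 and the tetraspanin CD151 form the membrane part of the hemidesmosome, and the plakins DST and PLEC1 (plectin, now named PLEC) tie it to keratin filaments. The integrin of ITGA3 and ITGB1 binds the same laminin outside hemidesmosomes.

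Signals are given in the units of the scanner, after background correction and before scaling between arrays. Each log2 ratio is eSAS minus SAS, after the log2 signal had been set relative to the 75th percentile of its array (1242 for SAS cells and 1196 for eSAS cells). A probe was taken as detected where the scanner software found it well above background, which held for 69.4% of spots in SAS cells and 67.5% in eSAS cells. A probe detected on 1 array has only a bound on its ratio, set with the lowest detected signal of the other array or the signal of the probe itself, whichever was higher. The precision is known only within an array: over 211 probes printed several times, the SD of the log2 ratio between spots was 0.0423 for signals of 1000 and over, 0.0763 for signals between 100 and 1000, and 0.201 under 100. No spot of these genes was saturated or marked as faulty. Of 267 marked spots on the SAS array, 196 lay in rows 450 to 510, where 9 of the probes described here also lay, and a place in these rows is given beside the value. Of 11 squamous epithelial marker genes on the array, all 11 were detected on both.

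Of the 75 probes, 48 were detected on both arrays, 3 in SAS cells alone, 2 in eSAS cells alone and 22 in neither. By gene, 32 of 42 had a probe detected on both arrays. ITGA11, ITGB6 and LAMB4 were detected on 1 array only. ITGA8, ITGA10, ITGAD, ITGAL, ITGAM, ITGAX and ITGB3 were not well above background on either. Of the 48 probes detected on both arrays, 46 lay within 1.5-fold.

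Among the 53 probes detected on at least 1 array, 3 (5.66%) were higher in eSAS cells by 1.5-fold or more and 3 (5.66%) were lower by as much. Over all 28439 probes detected on at least 1 array, 4.43% passed the 1.5-fold limit upwards and 6.12% downwards. At 2-fold, 1 of the 53 probes (1.89%) was higher, beside 1.83% of all probes, and 2 (3.77%) were lower, beside 1.97%. These shares lay near those of all probes, and both probes past 2-fold on the lower side belonged to COL17A1.

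**Figure D1:**
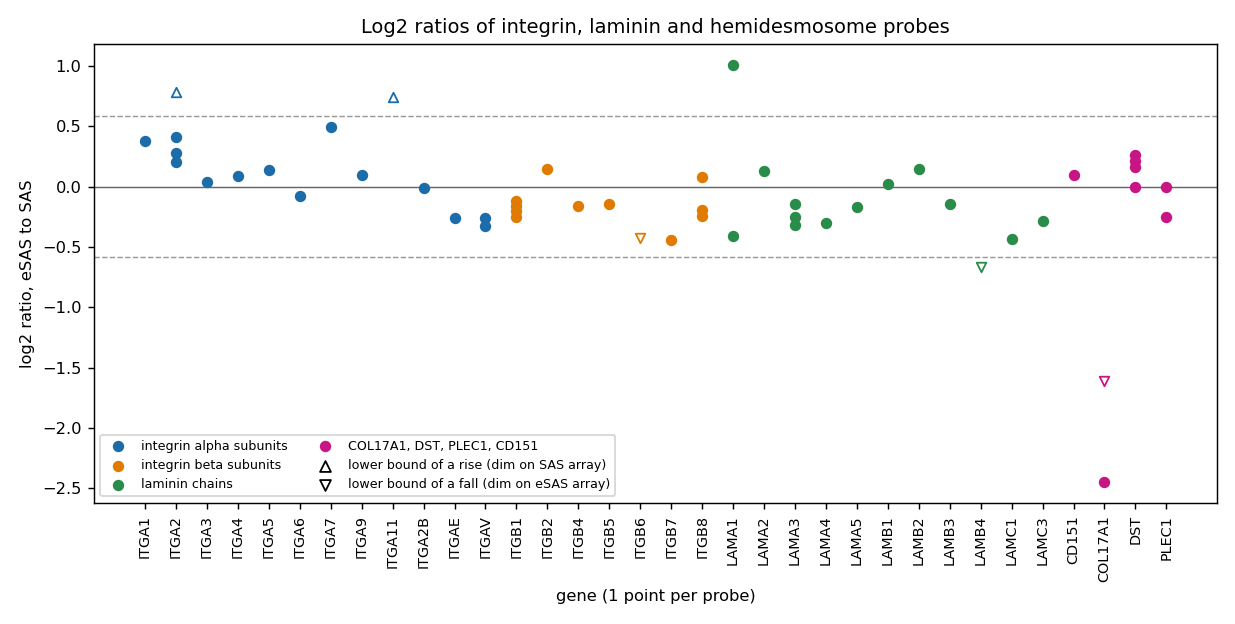
The log2 ratio of eSAS over SAS (vertical axis) of integrin, laminin and hemidesmosome probes detected on at least 1 array, by gene (horizontal axis), with 1 filled point per probe detected on both arrays and an open triangle at the bound of each probe detected on 1 array. Most points lie between the dashed lines at 1.5-fold, and the COL17A1 probes lie farthest below them at -2.44 and -1.61.

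COL17A1, the transmembrane collagen of the hemidesmosome, was lower in eSAS cells on both of its probes. The probe at chr10:105781073-105781132 (minus strand, build hg18) gave a processed signal of 357 in SAS cells and 63.2 in eSAS cells. This is a log2 ratio of -2.44, or 5.44-fold lower, beside an SD between replicate spots of 0.0763 at geometric mean signals of 100 to 1000, the range of this probe. Under 100, where its eSAS signal alone lay, the SD was 0.201. The probe at chr10:105781773-105781832 gave 48.1 in SAS cells and 14.2 in eSAS cells, where it was not well above background, and was at least 3.05-fold lower. The 8 spots nearest to these probes had median log2 ratios of -0.05 and -0.18. With another background correction (normexp over all spots) the first probe read 0.56, below the median of 0.68 over all genes under that setting. The bound of the second probe then no longer pointed to a fall and was dropped. Without background correction the first probe read -1.86 and the second -0.58. In bulk RNA, fewer cells with COL17A1 RNA and less of it in each cell cannot be told apart.

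The remaining hemidesmosome genes differed far less. ITGB4, the beta subunit with a long cytoplasmic tail that binds plectin, gave 10963 in SAS cells and 9429 in eSAS cells (log2 ratio -0.16). ITGA6, its alpha partner, gave 4646 and 4231 (-0.08). Both were slightly lower in eSAS cells, by far less than COL17A1.

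The plakins lay within 1.5-fold. DST, whose epithelial isoform lies in the inner hemidesmosomal plaque, was detected by 4 of 6 probes, with log2 ratios between -0.0012 and 0.27 and a mean of 0.16. The DST probe with the highest signal gave 2883 in SAS cells and 2774 in eSAS cells. PLEC1 gave 8801 and 8460 on 1 probe (-0.0027) and 816 and 662 on the other (-0.25). CD151, which associates with laminin-binding integrins, gave 3181 and 3276 (0.10), in row 510 of the array. Apart from COL17A1, every gene of the hemidesmosome group therefore lay within 1.5-fold.

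**Figure D2:**
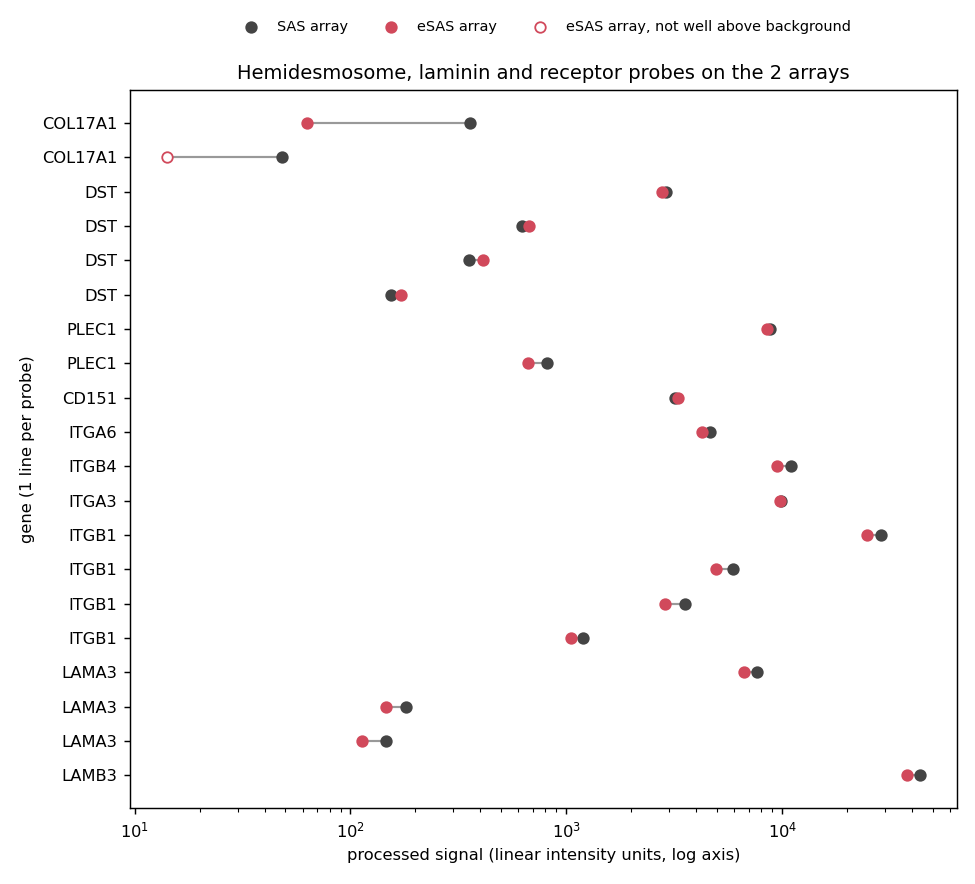
Processed signal (horizontal log axis, scanner units, before scaling between arrays) of probes of the hemidesmosome genes and of LAMA3, LAMB3, ITGA3 and ITGB1 (vertical axis, 1 line per probe), with SAS cells in dark grey and eSAS cells in red, open where not well above background. The lines of COL17A1 are the longest, from 357 in SAS cells to 63.2 in eSAS cells and from 48.1 to 14.2.

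The 250 bases before the transcript start of COL17A1, whose RNA differed strongly, are shown beside those of LAMA3 and LAMB3, whose RNA did not. They are RefSeq sequences of build GRCh38.p14, at chr10:104085881-104086130 (minus strand) for COL17A1, chr18:23872770-23873019 (plus strand) for LAMA3 and chr1:209651375-209651624 (minus strand) for LAMB3. LAMB3 has 3 windows in the table, and the one shown was chosen for its motif. Capitals mark matches to TGANTCA, the motif of AP-1 factors, which are known for their part in keratinocyte gene expression, and to TATAAA, the core of the TATA box, on either strand.
COL17A1: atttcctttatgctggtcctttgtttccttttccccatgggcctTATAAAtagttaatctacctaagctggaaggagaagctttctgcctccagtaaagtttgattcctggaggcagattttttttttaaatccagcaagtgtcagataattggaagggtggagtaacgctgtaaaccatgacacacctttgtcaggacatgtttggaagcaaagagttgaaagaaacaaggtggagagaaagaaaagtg
LAMA3: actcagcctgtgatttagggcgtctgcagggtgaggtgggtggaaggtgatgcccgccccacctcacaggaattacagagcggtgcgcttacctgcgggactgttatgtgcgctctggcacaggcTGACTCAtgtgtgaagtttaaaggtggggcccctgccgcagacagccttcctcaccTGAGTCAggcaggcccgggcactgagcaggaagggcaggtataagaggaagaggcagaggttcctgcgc
LAMB3: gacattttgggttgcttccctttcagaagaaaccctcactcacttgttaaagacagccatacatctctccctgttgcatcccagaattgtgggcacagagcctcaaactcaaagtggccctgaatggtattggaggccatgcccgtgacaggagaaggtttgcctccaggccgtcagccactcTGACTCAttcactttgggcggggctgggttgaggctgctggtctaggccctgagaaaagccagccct
LAMA3 held 2 AP-1 matches, which begin 125 and 69 bases before the start, and LAMB3 held 1, which begins 67 bases before it. The other 2 LAMB3 windows in the table held 0 AP-1 matches. COL17A1 held no AP-1 match in its window and a TATAAA match that begins 206 bases before the start. Of the 42 genes, 28 had a window in the table, 37 windows in all. LAMA3 and LAMB3 were the only 2 of these 28 genes with an AP-1 match, so the lack of one was not particular to COL17A1. The windows of ITGA6 and DST, whose RNA differed little, held 0 AP-1 matches as well. TGANTCA was found in 5.41% of the 37 windows and in 6.57% of all 35116 promoter windows, and TATAAA in 8.11% and 10.7%. A match is only a run of letters, and none was tested as a site of binding.

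LAMA3 and LAMB3, chains of the hemidesmosomal laminin, were slightly lower in eSAS cells. LAMB3 gave 43342 in SAS cells and 37706 in eSAS cells (log2 ratio -0.15). LAMA3 gave 7625 and 6641 (-0.15), 181 and 146 (-0.25), and 146 and 113 (-0.32). The 4 probes of these 2 genes were thus all below 0, each within 1.5-fold, and by over 3 times the replicate-spot SD of their signal range. That SD does not cover differences between RNA samples or arrays. The 8 nearest spots had median log2 ratios of 0.16, 0.09 and 0.07 at the LAMA3 probes and of -0.08 at the LAMB3 probe. With normexp over all spots the LAMA3 gene value turned to 0.78, where the median of all genes was 0.68.

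Laminin chains as a whole had a median log2 ratio of -0.17 over the 11 of 12 chains detected on both arrays, with 4 above 0 and 7 below. Over all 19476 genes detected on both arrays the median was -0.0012, with 49.7% above 0. The chains ran from LAMC1, the gamma chain of most laminins outside the epithelial one, which gave 8749 in SAS cells and 6229 in eSAS cells (-0.44), to LAMA1 at 0.30.

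The LAMA1 value hid probes that differed. LAMA1 encodes an alpha chain of embryonic basement membranes and has 5 probes, of which 2 were detected. The probe at chr18:6931976-6932035 gave 92.9 in SAS cells and 180 in eSAS cells, 2.01-fold higher (log2 ratio 1.01), with the 8 nearest spots at a median of 0.07. The probe at chr18:7040874-7040933 gave 22.9 and 16.6 (-0.41). The 2 probes differed by 1.42 on the log2 scale, which is several times the SD of 0.201 between replicate spots under a signal of 100, and no direction can be given for the gene.

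LAMB4, a beta chain with little known expression, was detected by 1 probe on the SAS array alone. It gave 30.0 there and 18.2 on the eSAS array, at least 1.59-fold lower. Without background correction this log2 value was -0.15, within 1.5-fold, and with normexp over all spots the bound no longer pointed to a fall. The other LAMB4 probe was on neither array well above background.

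Of the integrin alpha subunits, 11 of 18 were detected on both arrays, and none lay past 1.5-fold as a gene. Their median log2 ratio was 0.09, with 7 above 0 and 4 below. They ran from ITGAV at -0.29 to ITGA7 at 0.50 (485 in SAS cells and 659 in eSAS cells). The median was positive in all 15 other processing settings tried, some of which could not change it. The alpha subunits described above as binding the laminin of LAMA3 and LAMB3, ITGA3 (9906 in SAS cells and 9789 in eSAS cells, 0.04) and ITGA6 (-0.08), lay near 0.

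ITGA2, the alpha subunit of an epithelial collagen receptor, was higher in eSAS cells on every probe. It gave 4292 and 4759 (log2 ratio 0.20), 893 and 1141 (0.41), and 66.2 and 77.2 (0.28). The fourth probe was dim, at 10.9 in SAS cells, not well above background, and 21.3 in eSAS cells, at least 1.72-fold higher, though its log2 value was 0.29 without background correction, within 1.5-fold. With normexp over all spots the fourth probe read 3.00. The first 2 of these probes lay in rows 510 and 495, and the other 2 lay outside the rows with many marked spots.

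ITGA11, a subunit of a collagen receptor of mesenchymal cells, was not well above background in SAS cells at 14.3 and gave 23.0 in eSAS cells, at least 1.67-fold higher. Its 1 probe lay in row 466, within the rows with many marked spots, and its 8 nearest spots had a median log2 ratio of -0.15. The log2 value of 0.74 became 0.26 without background correction, and 0.04 and 0.02 with normexp without spots of marked local background, so the 1.5-fold call was lost. With normexp over all spots it read 2.96 and 2.94, on mean and median pixels. Of 8 fibroblast markers on the array, 1 was detected on both arrays, 2 on 1 array and 5 on neither. LUM was detected in eSAS cells alone, at 3.21 in SAS cells and 29.6 in eSAS cells, and COL1A1 in SAS cells alone, at 15.2 and 5.28. The summed signal of the list was 2728 in SAS cells and 2623 in eSAS cells, of which THY1 gave 2667 and 2556. The part of these markers in the ITGA11 value was not tested.

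Of the integrin beta subunits, 6 of 8 were detected on both arrays, with a median log2 ratio of -0.15. Only ITGB2 was above 0 and the other 5 were below, down to ITGB7 at -0.44 (218 in SAS cells and 154 in eSAS cells). ITGB6, which with ITGAV forms a receptor that activates latent TGF-beta in epithelia, was detected in SAS cells alone, at 23.2 beside 16.7 in eSAS cells, and its bound lay within 1.5-fold.

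ITGB1, the beta subunit that the most alpha subunits share, was lower on all 4 of its probes, by little. The probes gave 28512 in SAS cells and 24621 in eSAS cells, 5900 and 4929, 3525 and 2859, and, over 10 spots each, 1188 and 1050. Their log2 ratios lay between -0.25 and -0.12 with a mean of -0.18. The array annotation placed 1 of these probes, that at 3525 and 2859, on another chromosome than the other 3, so its reading of ITGB1 is uncertain. The brightest probe, at 28512 and 24621, lay in row 475, within the rows with many marked spots.

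**Figure D3:**
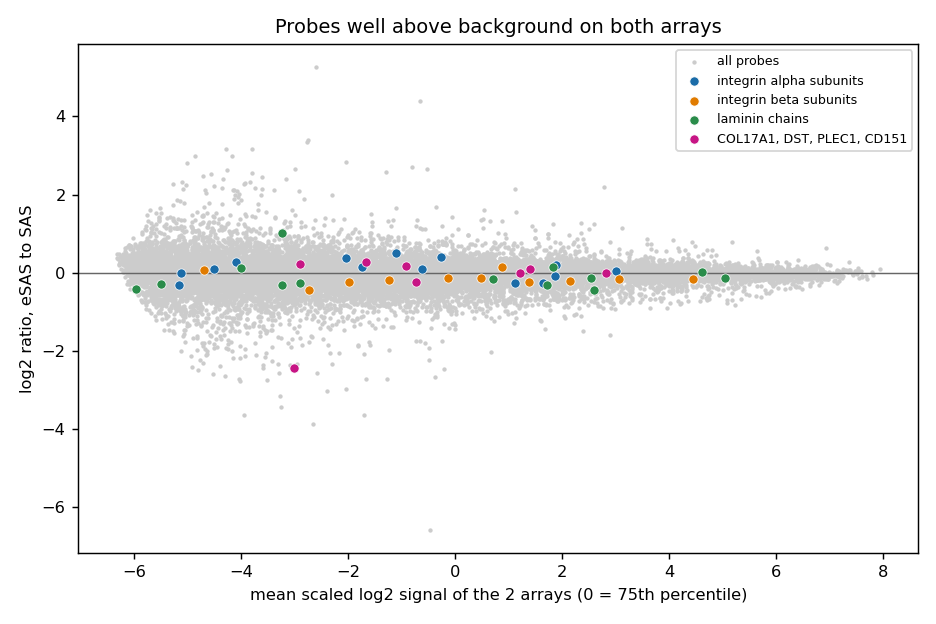
The log2 ratio of eSAS over SAS (vertical axis) against the mean scaled log2 signal of both arrays (horizontal axis, 0 at the 75th percentile), with all probes detected on both arrays in grey and those of the integrin, laminin and hemidesmosome genes described in colour. Most coloured points lie near 0 along the whole range of signals, and COL17A1 and the higher LAMA1 probe lie apart at -2.44 and 1.01.

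Probes for ITGAV, ITGB1, ITGB2 and ITGB3 were printed 10 times on each array, which gives the spread between spots of 1 hybridisation. For ITGAV, the partner of several beta subunits in receptors for vitronectin and fibronectin, the spots had a lowest, median and highest signal of 2797, 2945 and 3164 in SAS cells and of 2246, 2371 and 2575 in eSAS cells. The scaled values of the 2 arrays did not overlap, and the log2 ratio was -0.26 ± 0.038 (SD over 10 spots). For ITGB2, the beta subunit of leukocyte integrins, the signals were 2031, 2196 and 2296 in SAS cells and 2201, 2305 and 2485 in eSAS cells. The ITGB2 ranges overlapped slightly after scaling, with a ratio of 0.15 ± 0.050 and all 10 spots above 0. For ITGB1 the signals were 1042, 1202 and 1244 against 1004, 1057 and 1120, the ranges overlapped, and 9 of 10 spots were below 0 (-0.12 ± 0.049). These spots share 1 RNA sample per array, so their SD covers printing and hybridisation only.

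**Figure D4:**
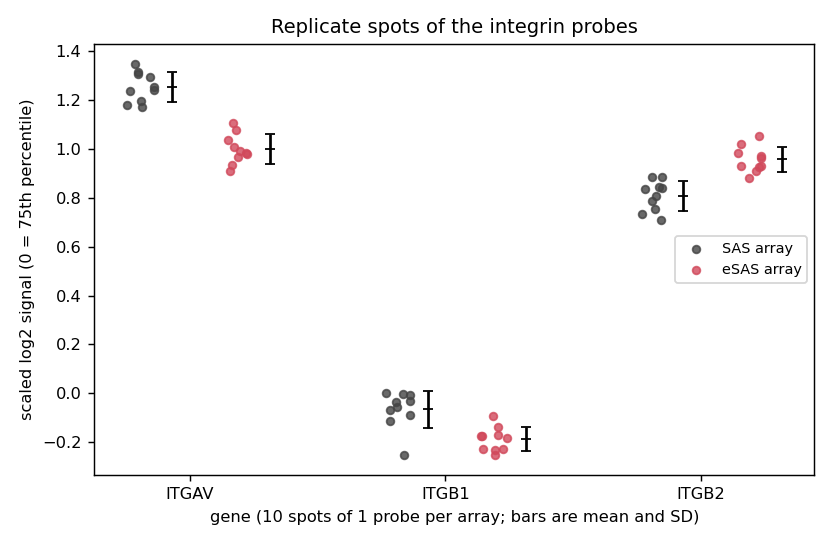
Scaled log2 signals (vertical axis, log2 of the processed signal minus that of the 75th percentile of the array) of the 10 spots per array of the ITGAV, ITGB1 and ITGB2 probes (horizontal axis), with SAS cells in grey, eSAS cells in red and bars for the mean and SD over spots. The ITGAV spots lie between 1.17 and 1.35 in SAS cells and between 0.91 and 1.11 in eSAS cells and do not overlap, while the ranges of the other probes do.

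ITGB2 was detected without its usual partners: ITGAL, ITGAM, ITGAX and ITGAD, the alpha subunits that pair with it in white blood cells, were not well above background on either array. Of 10 leukocyte markers, 6 (among them PTPRC and CD3E, which define leukocytes and T cells) were not well above background on either array. CD14, CD68, LCP1 and TYROBP were detected on both, and the summed signal of all 10 was 1066 in SAS cells and 1164 in eSAS cells. LCP1 was the 1 of them past 1.5-fold, at 55.7 and 95.1 (log2 ratio 0.83). ITGB3, the platelet subunit, and 3 of 6 platelet markers were not well above background on either array. The other 3, GP1BA, GP9 and TREML1, were detected on both, with GP9 at 779 in SAS cells and 750 in eSAS cells. A second TREML1 probe was detected in eSAS cells alone, at 6.01 in SAS cells and 48.5 in eSAS cells. Of 8 endothelial markers, 1 was detected on both arrays, 3 on 1 array and 4 on neither.

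The genes that act next to integrins inside the cell differed little. Of 33 genes for adapters, kinases and tetraspanins linked to integrins (talins, vinculin, kindlins, paxillin, focal adhesion kinase and others), 32 were detected on both arrays, and 0 were past 1.5-fold in either direction. Their median log2 ratio was 0.04, and they ran from FLNA, a filamin that links integrins to actin, at -0.55 to the tetraspanin TSPAN4 at 0.54. By the same count of genes, 3.19% of all genes passed 1.5-fold upwards and 4.98% downwards.

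The basement membrane genes beside the laminins held several that were lower in eSAS cells. Of 16 detected on both arrays, 7 were at least 1.5-fold lower and 1 was at least 1.5-fold higher, beside 4.98% and 3.19% of all genes, with a median of -0.22. The list was chosen with earlier results of these data known, so its share beside that of all genes is not an independent comparison. With normexp over all spots the counts turned to 3 lower and 8 higher with a median of 0.61. Under that setting the median of all genes was 0.68, and 47.5% of all probes were at least 1.5-fold higher. The lower ones were COL4A2, COL4A5 and COL4A6, chains of the network-forming collagen of basement membranes (-0.79, -0.90 and -1.14), COL7A1, which anchors the membrane to the tissue beneath (-0.84), COL18A1 (-0.91), FBLN2 (-0.84) and SPARC (-0.70). The higher one was the proteoglycan HSPG2 at 0.59, on dim signals of 31.3 in SAS cells and 45.5 in eSAS cells. The probes of COL4A1 disagreed, at -0.98 (1681 and 822) and 0.88 (32.7 and 57.8).

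Some squamous epithelial markers were also lower in eSAS cells. Of 11 on the array, 3 were lower by 1.5-fold or more, beside 4.98% of all genes, and 8 lay within 1.5-fold. Below 0 were 9, beside 50.3% of all genes, and the list median was -0.46. This list too was chosen with earlier results of these data known. Past 1.5-fold were KRT5 at -0.63, SFN at -0.59 and KRT14 at a mean of -3.90, whose 2 probes differed widely, at -6.58 (8749 in SAS cells and 88.3 in eSAS cells) and -1.23 (3136 and 1286). EPCAM and JUP were above 0, at 0.04 and 0.13. The summed signal of the 11 was 137381 in SAS cells and 107908 in eSAS cells. KRT14 and KRT5 form the keratin filaments of basal keratinocytes, to which hemidesmosomes attach. The part of these genes in the COL17A1 value was not tested.

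**Figure D5:**
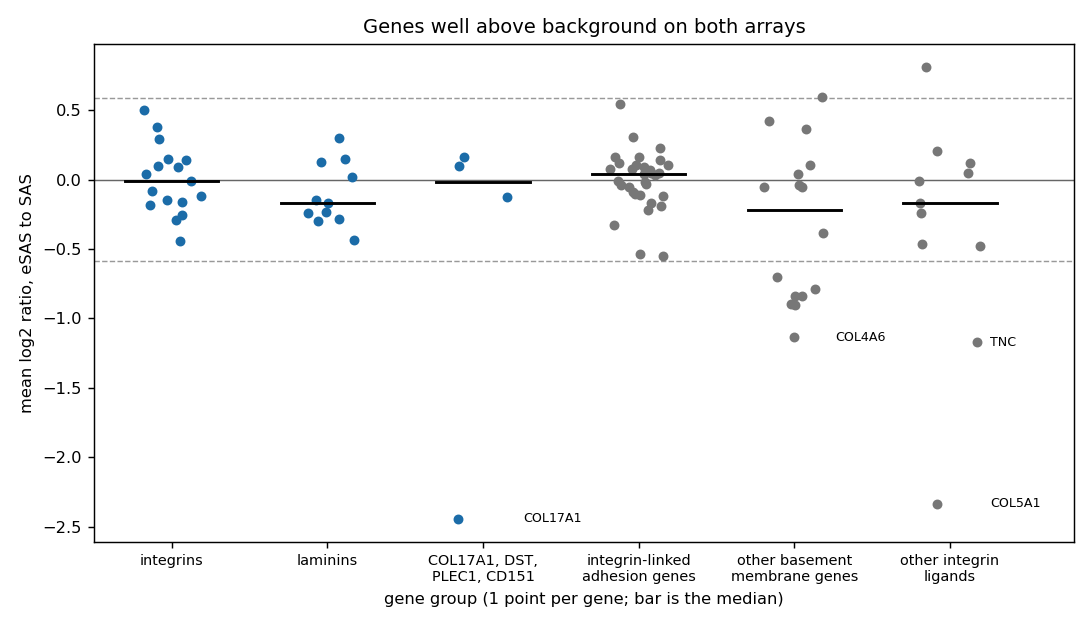
The mean log2 ratio of eSAS over SAS (vertical axis) of each gene detected on both arrays, by group (horizontal axis), with 1 point per gene, a bar at the median of each group and dashed lines at 1.5-fold. The integrin-linked genes all lie between the dashed lines, 7 basement membrane genes lie below them, and COL17A1 is the 1 hemidesmosome gene below them at -2.44.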

How the data were processed

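Total RNA of SAS and eSAS cells was labelled with Cy3 and hybridised to 1-colour Agilent whole human genome arrays, 1 per population, on 1 slide. The authors deposited the output of Agilent Feature Extraction (version 10.7.3.1), whose linear intensity values include a processed signal that had been corrected for background and spatial trends and not scaled between arrays. The deposited series table was equal to it for every spot. Scaling by the authors is not given in the sources used here.

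From these intensities, log2 of the processed signal minus that of the 75th percentile over non-control spots was computed. Spots marked as outliers on either array were left out, replicate spots were averaged, and a probe was detected where over 50% of its spots were well above background. A gene was the mean log2 ratio of its probes detected on both arrays. Calls were made at 1.5-fold and 2-fold, on the ratio or its bound. Of 75 probes, 68 matched a RefSeq accession in the gene table of GRCh38.p14, and positions of probes are those of the array (hg18). No probe or protein sequence was used here.

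Some single genes are not reported here, although counts and medians include them. The genes and lists were chosen with earlier results of these data known. Values on both arrays are given for genes with a probe past 1.5-fold and for genes whose probes differed by over 1 in log2 ratio. They are also given for genes of the hemidesmosome and its laminin, and for ITGA6, ITGB4, ITGA3 and ITGB1. Values of ITGAV, ITGA2, ITGA7, ITGB2, ITGB6, ITGB7 and LAMC1 were added after they were seen. With 1 array per group no test was made, and the number of arrays limits the precision. The alternatives were other scalings, background corrections, filters on dim probes, marked spots kept and rows 450 to 510 left out. The counting was tested on simulated data, in which 197 of 197 probes changed by 2-fold were called at 1.5-fold and 0 of 27741 unchanged probes. Only bright probes were changed, and all spots had noise of the SD over all replicated probes (0.0814). The simulation therefore does not cover calls on dim probes or differences between RNA samples. Python 3.11.15, R 4.3.3 and limma 3.58.1 were used.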

Additional observations from a re-analysis of the deposited data

How the results depend on the processing

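Medians of the 3 large gene groups kept their sign in all 15 other settings, from 0.03 to 0.81 for integrin alpha subunits, from -0.21 to -0.12 for beta subunits and from -0.32 to -0.13 for laminin chains. The deposited table, marked spots kept, gene names through the RefSeq accession and the filter on both arrays could not change these medians, and left the single values they gave as they were. Scaling by 1 factor per array, or none, shifts all genes alike, here by less than the SD of 0.0814 used as the limit below. Values under the settings named so far therefore had to stay within that limit. Of 230 recomputed values of single genes or probes, 182 stayed within 1 SD of replicate spots of the main value, 46 moved farther and 2, both of COL17A1, turned from past 1.5-fold to the other sign. A bound that turned to the other sign was dropped and is not among the 230. This held for the second COL17A1 probe and the LAMB4 probe with normexp over all spots, so turned values are undercounted. Counting also values within 1.5-fold, 9 changed sign, 8 of them with normexp over all spots and the other ITGA3 at -0.017 without scaling. The main counts were 3 probes higher and 3 lower by 1.5-fold, and 1 higher and 2 lower by 2-fold. With normexp over all spots, on mean or on median pixels, 20 and 20 probes were higher and 8 and 9 lower by 1.5-fold, and 16 and 16 higher and 0 and 0 lower by 2-fold. Of all probes, 47.5% and 47.4% were then higher by 1.5-fold and 7.68% and 7.55% lower. Shares of all probes at 2-fold were not computed for the other settings. The median over all genes then moved to 0.68, that of the integrin, laminin and hemidesmosome genes to 0.14 and 0.12 (-0.54 and -0.56 relative to all genes), and the first COL17A1 probe reversed to 0.56 and 0.54. The second COL17A1 probe gave no value, because its bound turned to the side of a rise and such a bound was dropped. LAMA3 then turned to 0.78 and 0.77, CD151 to -0.20 and -0.21, and ITGA3 to -0.44 and -0.42. Spots with a marked local background entered those fits, and without them, an alternative chosen after seeing the data, the first COL17A1 probe read -1.70 and -1.72, 1 probe was higher by 1.5-fold, 1 lower on mean pixels, 0 higher by 2-fold and 1 lower. Of all probes, 1.42% and 1.47% were higher by 1.5-fold without those spots, and 2.84% and 2.76% lower. No background correction gave 1, 1, 0 and 1 probes (1.5-fold higher and lower, 2-fold higher and lower), beside 1.93% and 2.8% of all probes at 1.5-fold. Counting only probes detected on both arrays left 1 probe higher and 1 lower by 1.5-fold, beside 3.09% and 4.89% of all probes, and 1 lower by 2-fold. With no filter on dim probes the counts were 6, 6, 5 and 4, beside 6.4% and 8.54% of all probes at 1.5-fold, and the median was 0.015. Without scaling, 0 probes were at least 2-fold higher, since LAMA1 lay just past that limit.

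For the basement membrane genes beside the laminins (7 lower, 1 higher, median -0.22), normexp over all spots gave 3 lower, 8 higher and medians of 0.61 and 0.60. Without spots of marked local background 0 were higher and the medians were -0.34 and -0.35. No scaling or no background correction gave 0 higher, and no filter a median of -0.050. All settings for this list were chosen after its value was seen. Where not given above, the cause of a change was not tested. Signals near background limit the values of ITGA11, LAMB4, ITGB6, the dim ITGA2 probe and LAMA1. A block for the slide was not run, as there was 1 slide. No paired analysis was possible because each group had 1 array.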

Other observations

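Other ligands of integrins, both matrix proteins outside the basement membrane and cell-surface proteins, were described by 17 genes, of which 11 were detected on both arrays, with a median log2 ratio of -0.17. Of these 11, 2 were at least 1.5-fold lower in eSAS cells and 1 was at least 1.5-fold higher, beside 4.98% and 3.19% of all genes. COL5A1, a fibrillar collagen, gave 566 in SAS cells and 108 in eSAS cells (-2.34). TNC, a glycoprotein of tumour and wound matrix, gave 763 and 326 (-1.17). ICAM1, the cell-surface ligand of ITGB2 integrins, was the higher one, at 881 and 1491 (0.81), while FN1, the ligand of the integrin of ITGA5 and ITGB1, lay at -0.24.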
